A study of Homo sapiens with 6 samples.

Results

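The 10 genes described here are the transcription factor subunits RELA, NFKB1, RELB and NFKB2 of the NF-kB family, the inhibitors NFKBIA, TNFAIP3 and TNIP1 that act in its feedback, and BIRC3, SOD2 and ICAM1, which are known targets. They were listed by symbol, and all 10 were found among the 23368 genes of the count table. The list was drawn up because TNFAIP3 was lower in the SOX10 libraries in this comparison, so the differences of these genes between the groups are described and not tested. The cells were 1205Lu, an established human line from metastatic melanoma, and RNA was taken 24 h after transient transfection. The 3 SOX10 libraries came from cells given the plasmid pCMV6-SOX10, in which a viral promoter drives the transcription factor SOX10, and the 3 control libraries from cells given the pCMV6 plasmid alone. Both groups thus received plasmid DNA (7.8 µg a flask) and the same transfection reagent. No untransfected cells were analysed here, all libraries are of this cell line, and the sources used here do not give the share of cells that took up the plasmid.

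NF-kB is a family of dimeric transcription factors that mediate inflammatory and survival signals. In resting cells the dimers are held in the cytoplasm by IkB proteins such as the product of NFKBIA. Receptors for cytokines, and sensors of foreign nucleic acid, activate kinases that mark the IkB proteins for destruction, and the released dimers enter the nucleus. There they switch on genes for cytokines, adhesion molecules and survival factors, and also the genes of their own inhibitors, which close the loop. Many melanoma lines are known to have some activity of this pathway without added cytokine.

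NF-kB dimers bind a short DNA element, the kB site, and its letters were looked for around 1 annotated start site a gene. This was the first one listed, and any other start of the gene was not searched. Start-site sequences from RefSeq (GRCh38.p14) were matched for 9 of the 10 genes, all except RELB, each holding 250 bases before and 50 after the start. The search used a strict kB motif (GGG, any 2 bases, then TTTCC) and, more loosely, the kB consensus, both on either strand. In these 9 windows every match to the strict motif was also a match to the consensus. The strict motif was found in the windows of 4 of the 9 genes and in 1.92% of 27305 windows of the same length. The kB consensus was found in the same 4 genes and in 5.72% of all windows. Those 4 windows are printed because they carry the matches, without the bases after the start and with the matched letters in capitals.
TNFAIP3, chr6:137867009-137867258, plus strand: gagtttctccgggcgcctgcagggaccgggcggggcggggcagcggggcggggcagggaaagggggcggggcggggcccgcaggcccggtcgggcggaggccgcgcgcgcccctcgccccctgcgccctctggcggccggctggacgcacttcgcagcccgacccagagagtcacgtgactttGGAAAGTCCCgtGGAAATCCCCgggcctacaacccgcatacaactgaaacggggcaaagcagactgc
NFKBIA, chr14:35404750-35404999, minus strand: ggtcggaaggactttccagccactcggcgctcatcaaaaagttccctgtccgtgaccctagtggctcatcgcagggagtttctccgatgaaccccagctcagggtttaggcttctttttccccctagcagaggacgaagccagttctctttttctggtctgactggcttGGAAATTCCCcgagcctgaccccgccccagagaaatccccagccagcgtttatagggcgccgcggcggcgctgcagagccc
NFKB1, chr4:102501109-102501358, plus strand: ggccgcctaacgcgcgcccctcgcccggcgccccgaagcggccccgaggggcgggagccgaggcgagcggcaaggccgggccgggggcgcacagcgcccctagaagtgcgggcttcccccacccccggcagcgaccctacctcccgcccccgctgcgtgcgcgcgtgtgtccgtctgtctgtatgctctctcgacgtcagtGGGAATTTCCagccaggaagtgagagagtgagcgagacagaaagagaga
BIRC3, chr11:102317234-102317483, plus strand: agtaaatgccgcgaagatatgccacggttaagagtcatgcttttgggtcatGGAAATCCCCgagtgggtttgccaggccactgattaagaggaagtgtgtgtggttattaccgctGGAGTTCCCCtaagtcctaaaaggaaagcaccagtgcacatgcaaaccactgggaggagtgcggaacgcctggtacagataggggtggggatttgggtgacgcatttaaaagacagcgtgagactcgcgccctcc
TNFAIP3 had a pair of matches on the strand opposite to the gene, which began 67 and 55 bases before the start. NFKBIA had 1 match, 81 bases before the start, and NFKB1 had 1 on the strand of the gene, 49 bases before it. BIRC3 had matches 199 and 135 bases before the start, of which the nearer matched the consensus but not the strict motif. The windows of NFKB2, RELA, TNIP1, ICAM1 and SOD2 held neither pattern, which says only that these letters were not in these 300 bases. None of the 9 windows held the AP-1 motif TGANTCA, against 7.76% of all windows, or the SOX motif ACAAAG or ACAATG, against 24.6%. Among the windows of genes tested here the share was 2.18% for the strict kB motif, 6.68% for the kB consensus, 4.31% for the AP-1 motif and 15.4% for the SOX motif. A match to a motif is a description of the letters and not a measured binding site.

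Reads assigned to genes numbered 2544420 to 4167393 in the SOX10 libraries and 867917 to 2066520 in the control libraries. A single read was worth 0.242 to 0.399 CPM in the SOX10 libraries and 0.488 to 1.15 CPM in the controls, where CPM (counts scaled to a common library size) use edgeR's TMM factors. SOX10 itself, the gene on the plasmid, stood at 21.7, 18.7 and 34.6 CPM in SOX10 replicates 1 to 3, against 16.6, 20.8 and 21.5 CPM in control replicates 1 to 3. The groups overlapped, so the labels could not be checked from this gene. Of 12 melanoma and pigment cell markers, SOX10, S100B, ERBB3, MCAM, CSPG4 and S100A1 were each present at over 10 CPM in every library. The pigment genes MLANA, TYR, DCT and TYRP1 each had under 10 reads over all libraries. Of the 12, 6 had under 100 reads over the 6 libraries, among them MITF with 75 and PMEL with 19. By the same measure 8 of 10 keratinocyte and epithelial markers and 9 of 10 leukocyte and endothelial markers had under 100 reads. KRT18, of the epithelial list, stood at 43.8 to 51.1 CPM in the SOX10 libraries and 38.7 to 47.3 CPM in the controls, above SOX10 in each library. CD3E, of T cells, had 0 reads. The summed level of the leukocyte and endothelial list was 201 to 493 CPM in the SOX10 libraries and 262 to 631 CPM in the controls, nearly all of it CD68, a lysosomal protein that is not restricted to leukocytes. Without CD68 the sums were 7.50 to 12.8 CPM in the SOX10 libraries and 7.74 to 10.7 CPM in the controls.

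All 10 genes had enough reads for the fit, from 153 reads for RELB to 1728 for RELA over the 6 libraries. In these bulk libraries, fewer cells that express a gene and less of its RNA per cell cannot be told apart. Log2 fold changes are of SOX10 over control, from edgeR's quasi-likelihood fit over all 10678 tested genes, and are given with their standard error (SE).

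The groups overlapped for all 4 subunits, with log2 fold changes from -0.45 to -0.20. RELA, which carries the main activation domain of the family, stood at 134, 110 and 97.1 CPM in SOX10 replicates 1 to 3, against 132, 126 and 157 CPM in control replicates 1 to 3. SOX10 replicate 1 lay within the control range and the other SOX10 libraries below it, and the log2 fold change was -0.30 (SE 0.14). NFKB1 encodes a precursor whose processed form pairs with the RELA protein on DNA. It had 69.9, 78.6 and 62.0 CPM in the SOX10 libraries, against 77.4, 75.0 and 89.7 CPM in the controls. The groups overlapped, and the log2 fold change was -0.23 (SE 0.15). These were the steadiest of the 10 genes among the controls, with an SD of 12.2% of the mean for RELA and 9.80% for NFKB1.

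RELB and NFKB2 encode the dimer of the non-canonical branch of the pathway. RELB stood at 15.0, 4.39 and 8.24 CPM in the SOX10 libraries, against 12.2, 6.92 and 17.1 CPM in the controls, on as few as 6 reads in a library. The fit gave a log2 fold change of -0.45, with an SE of 0.41. NFKB2 had 25.2, 18.7 and 16.7 CPM in the SOX10 libraries, against 23.2, 15.0 and 28.3 CPM in the controls. Here the log2 fold change was -0.20 (SE 0.26). For both genes the groups overlapped almost fully. The lowest control was replicate 2 and the highest replicate 3, while SOX10 replicate 1 was the highest of its group.

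Among the inhibitors, TNFAIP3 was set apart between the groups and the others were not. TNFAIP3 encodes an enzyme that edits ubiquitin chains and so ends signalling from the TNF receptor and related receptors. It stood at 9.64, 12.0 and 12.4 CPM in SOX10 replicates 1 to 3, on 36, 30 and 51 reads. The controls had 26.5, 19.6 and 35.6 CPM, on 24, 17 and 73 reads. Every SOX10 library was below every control library. The means were 11.3 ± 1.47 CPM in the SOX10 libraries and 27.2 ± 8.02 CPM in the controls (SD, n = 3 each), and the fitted fold was 0.398 with a 95% interval from 0.270 to 0.586. This value chose the list and is not a test of it. The call at an adjusted p under 0.05 that drew attention to TNFAIP3 was lost in 5 of the 6 fits that left out 1 library, all except that without control replicate 2. Over all other settings of the fit, TNFAIP3 was called in 7 of 17. Among those without the call were upper-quartile scaling, limma-voom, a block for the replicate number and thinning to equal depth. TNFAIP3 thus lay close to the threshold. Its log2 fold change was -1.33 with all libraries, -1.03 when control replicate 3 was left out and -1.49 when control replicate 2 was.

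NFKBIA encodes the IkB protein that is made anew after each round of activation. It had 62.7, 35.5 and 28.1 CPM in the SOX10 libraries, against 63.0, 32.3 and 80.0 CPM in the controls. SOX10 replicate 1 and control replicate 1 were nearly equal, and control replicate 2 lay below SOX10 replicates 1 and 2. The log2 fold change was -0.54 (SE 0.26), or -0.18 without control replicate 3 and -0.97 without SOX10 replicate 1. TNIP1, a ubiquitin-binding partner of the TNFAIP3 protein, had 59.7, 57.4 and 41.2 CPM in the SOX10 libraries, against 52.0, 48.4 and 73.1 CPM in the controls. SOX10 replicates 1 and 2 were above control replicates 1 and 2. Its log2 fold change was -0.19 (SE 0.19), and it was 0.066 without control replicate 3.

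SOX10 replicate 1 had the lowest TNFAIP3 of all libraries and the highest NFKBIA of its group. TNFAIP3 differed little among the SOX10 libraries, at 9.64, 12.0 and 12.4 CPM on 36, 30 and 51 reads. Its order among them is therefore uncertain. The ratio of TNFAIP3 to NFKBIA, each in CPM per kb of exon, was 0.0723, 0.158 and 0.207 in SOX10 replicates 1 to 3. In control replicates 1 to 3 it was 0.198, 0.285 and 0.209. SOX10 replicate 3 lay within the control range of this ratio. Against RELA the ratio of TNFAIP3 was 0.0777, 0.118 and 0.138 in the SOX10 libraries, against 0.218, 0.169 and 0.244 in the controls, with no overlap. The levels of TNFAIP3, which chose the list, were already apart between the groups, so these ratios are no further result.

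The survival and adhesion genes had larger differences than the subunits, but their groups overlapped. BIRC3, a ubiquitin ligase that works at the TNF receptor complex and restrains cell death, stood at 65.3, 60.2 and 28.3 CPM in the SOX10 libraries. In the controls it stood at 80.7, 46.1 and 126 CPM. Control replicate 2 was below SOX10 replicates 1 and 2, and the log2 fold change was -0.81 (SE 0.27), or -0.32 without control replicate 3. SOD2, the superoxide dismutase of mitochondria, had 28.4, 25.5 and 19.4 CPM in the SOX10 libraries, against 58.6, 26.5 and 69.7 CPM in the controls. Only control replicate 2 and SOX10 replicate 1 crossed, and the log2 fold change was -1.15 (SE 0.25), or -0.81 without control replicate 3. In GENCODE release 29, 9.71% of the exonic bases of SOD2 are shared with other genes, among them ACAT2 and WTAP on the opposite strand.

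ICAM1, a surface protein to which leukocyte integrins bind, was the most variable of the 10 genes among the controls. It had 99.3, 72.2 and 53.0 CPM in SOX10 replicates 1 to 3, against 127, 79.6 and 254 CPM in control replicates 1 to 3. Control replicate 3 had 2.45 times the mean of the other controls, and control replicate 2 was below SOX10 replicate 1. Its log2 fold change of -1.12 (SE 0.25) became -0.47 without control replicate 3. Antisense transcripts annotated in GENCODE release 29 share 23.6% of its exonic bases, and whether the counting used strand is not stated in these sources.

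**Figure D1:**
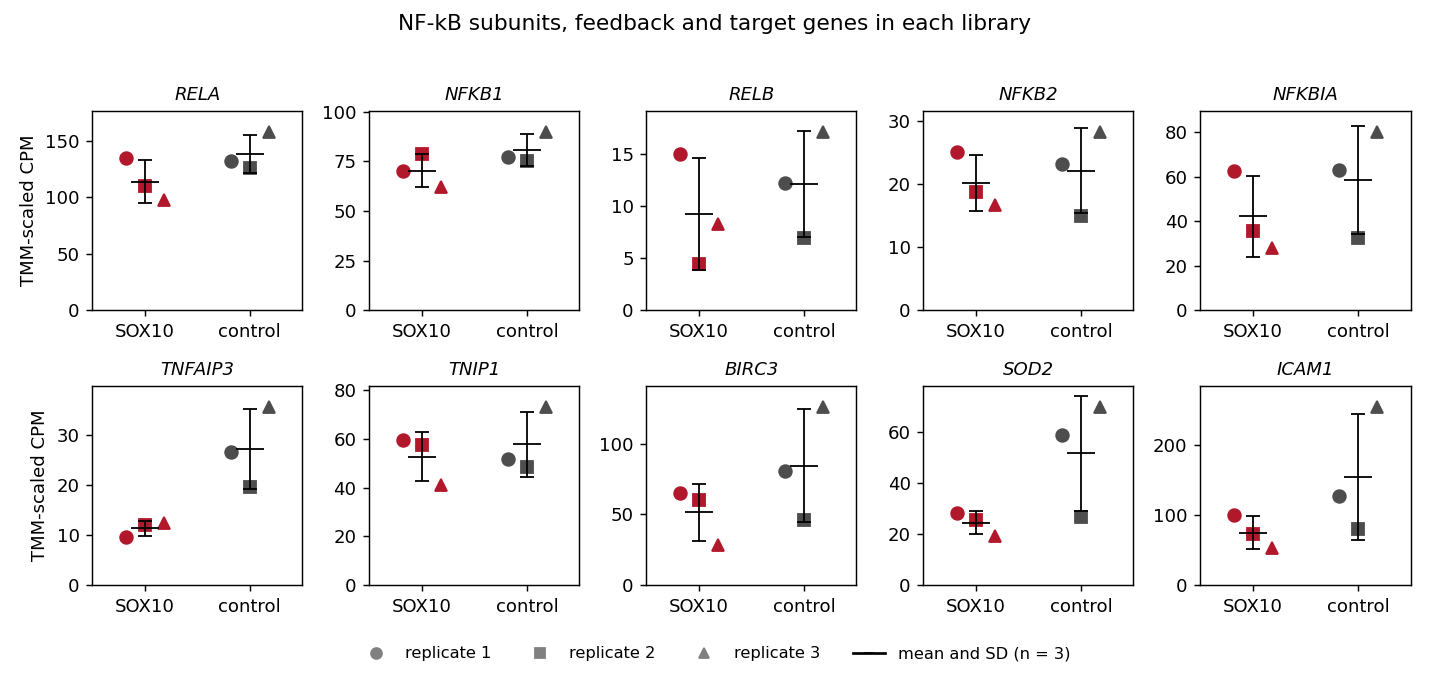
TMM-scaled CPM of each gene (vertical axes, from 0) in the 3 SOX10 and the 3 control libraries, with marker shapes for replicates 1 to 3 and bars for the mean and SD. The groups were apart for TNFAIP3 alone (highest SOX10 library 12.4 CPM, lowest control 19.6 CPM), and the triangle of control replicate 3 was the highest point in every panel.

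**Figure D2:**
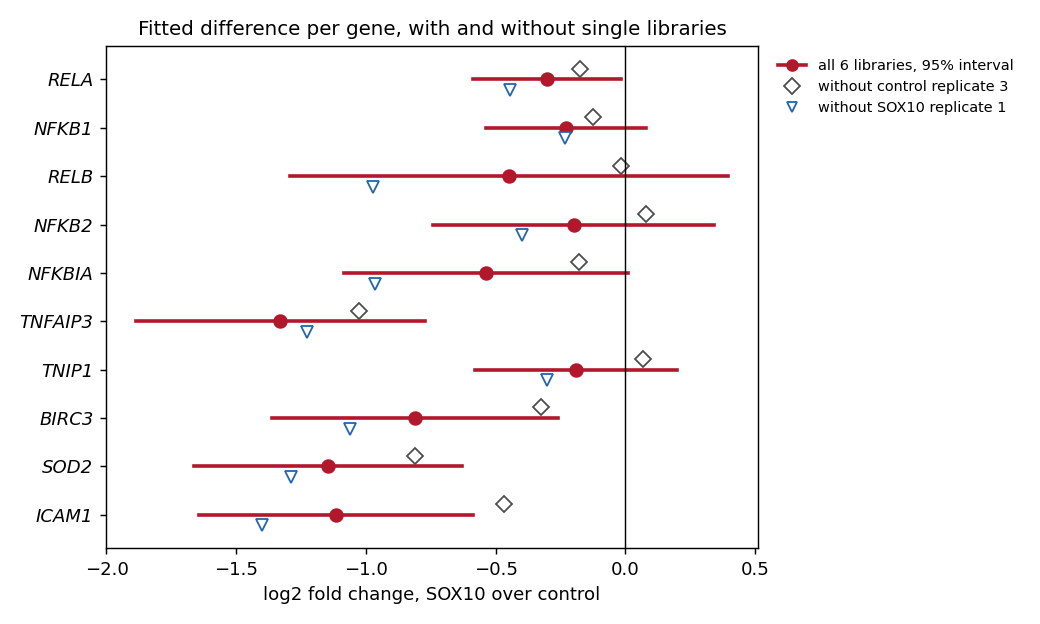
Fitted log2 fold change of SOX10 over control for each gene, as filled points with 95% intervals for all 6 libraries, open diamonds without control replicate 3 and open triangles without SOX10 replicate 1. Without control replicate 3 the values lay closer to 0 for all 10 genes, and NFKB2 (0.081) and TNIP1 (0.066) had a positive value.

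All 10 genes had a negative log2 fold change, a sign that 48.7% of all tested genes had. Their median was -0.49, against 0.0076 over all tested genes. This median was -0.18 without control replicate 3 and -0.97 without SOX10 replicate 1. At an adjusted p under 0.05, 1 of the 10 was called lower, TNFAIP3, where 0.103% of tested genes were called lower and 0.112% in either direction. The groups did not overlap for 1 of the 10, with all SOX10 libraries lower, against 6.03% of tested genes. The 95% interval of the fold lay below 1 for 5 of the 10 (TNFAIP3, SOD2, ICAM1, BIRC3 and RELA), and 3.52% of tested genes had a lower level at an unadjusted p under 0.05. Since the list was chosen from this contrast, nothing is read from these shares. Across other settings of the fit 0 to 4 of the 10 were called, and 0 in 9 of 17. The genes with matches to the strict kB motif had log2 fold changes of -1.33, -0.81, -0.54 and -0.23. Those of the 5 without a match in the 1 window searched ran from -1.15 to -0.19. With so few genes, TNFAIP3 among them, which chose the list, nothing is read from these values. A window without a match lacks only the letters searched for.

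The spread within the groups followed the same libraries for nearly all of the genes. Control replicate 3 had the highest level of the 6 libraries for 10 of 10 genes, while it was the highest for 15.7% of all tested genes. Control replicate 2 was the lowest control for 10 of 10. Among the SOX10 libraries, replicate 1 was the highest for 8 genes and replicate 3 the lowest for 8. Control replicate 3 exceeded the mean of the other controls by a factor of 1.18 (NFKB1) to 2.45 (ICAM1), with a median of 1.59 over the 10 genes and 0.997 over all tested genes. SOX10 replicate 1 exceeded the mean of the other SOX10 libraries by a median factor of 1.36, against 0.996 over all tested genes. TNFAIP3 was the lowest of the 10 in this factor, at 0.793.

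**Figure D3:**
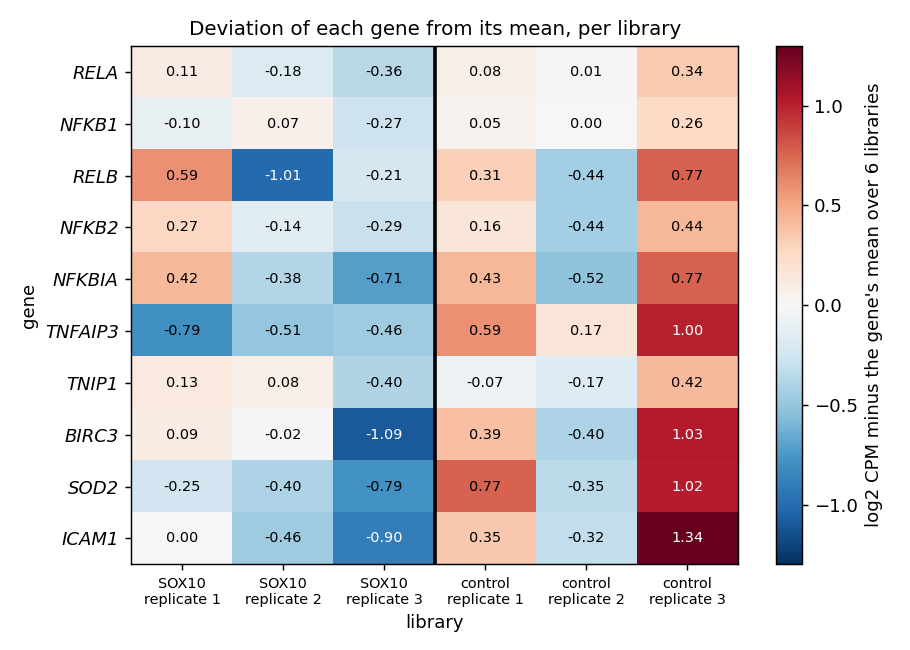
Log2 CPM of each gene (rows) minus its mean over the 6 libraries, for each library (columns), with SOX10 libraries left of the line and controls right of it. The column of control replicate 3 is positive in every row, from 0.26 for NFKB1 to 1.34 for ICAM1, and SOX10 replicate 1 is positive in 6 of 10 rows, with its lowest value, -0.79, for TNFAIP3.

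These libraries also differed in other measures. The summed level of the 10 genes was 569, 474 and 366 CPM in SOX10 replicates 1 to 3, and 652, 475 and 930 CPM in control replicates 1 to 3. For every 100 reads assigned to genes, SOX10 replicates 1 to 3 had 93.5, 121 and 122 reads that fell outside any gene. The controls had 125, 135 and 97.0 such reads. The library in which most of the 10 genes were highest was thus, in each group, that with the fewest reads outside genes. With that ratio as a covariate the median log2 fold change of the 10 genes was -0.60, and without both of these libraries it was -0.56. Thinned to equal depth it was -0.44. The interferon response list, whose genes answer to foreign nucleic acid, had a summed level of 12311, 11481 and 10470 CPM in SOX10 replicates 1 to 3, against 12392, 10331 and 13075 CPM in the controls. It was highest in replicate 1 of the SOX10 group and replicate 3 of the controls, and its part in the result was not tested. Of its 20 genes 0 were called by edgeR, and 5 were lower and 0 higher at an unadjusted p under 0.05, where 3.52% of all tested genes were lower. The interferon gene IFNB1 had 3.21, 6.78 and 5.57 CPM in the SOX10 libraries, against 12.2, 4.61 and 14.1 CPM in the controls, with no call (edgeR adjusted p = 0.69). Its most abundant genes were IFIT1 and MX1, effectors of the antiviral state, and DDX58, a sensor of viral RNA. Their log2 fold changes were 0.03, 0.12 and -0.17, with adjusted p-values by edgeR of 0.985, 0.927 and 0.815. These were named for their level alone. The 5 genes of the list that were lower at an unadjusted p under 0.05 had log2 fold changes from -2.67 to -0.39. The lowest value rests on 0 to 12 reads a library. Of the 20 genes 13 had a negative and 7 a positive log2 fold change.

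Per kb of exon, ICAM1, RELA and NFKBIA had the highest levels of the 10 genes in both groups. ICAM1 stood at 20.2 ± 6.28 CPM per kb in the SOX10 libraries and 41.4 ± 24.3 in the controls (SD, n = 3 each). RELA stood at 20.8 ± 3.45 in the SOX10 libraries and 25.3 ± 3.10 in the controls, and NFKBIA at 17.7 ± 7.67 in the SOX10 libraries and 24.6 ± 10.2 in the controls. These 3 did not differ from each other beyond their spread. NFKB1 followed with 11.2 ± 1.32 in the SOX10 libraries and 12.9 ± 1.26 in the controls. BIRC3 and TNIP1 were below NFKB1, at 6.82 ± 2.67 and 9.11 ± 1.75 CPM per kb in the SOX10 libraries. In the controls BIRC3 had 11.2 ± 5.31 and TNIP1 9.99 ± 2.31 CPM per kb. NFKB2 stood at 4.51 ± 0.98 in the SOX10 libraries and 4.94 ± 1.5 in the controls, while RELB had 3.03 ± 1.77 in the SOX10 libraries, against 3.97 ± 1.67 in the controls, within each other's spread. TNFAIP3 was next to last, at 2.24 ± 0.29 CPM per kb in the SOX10 libraries. In the controls it had 5.39 ± 1.59 CPM per kb, between TNIP1 and NFKB2 and within the spread of NFKB2. SOD2 was lowest, at 1.34 ± 0.25 in the SOX10 libraries and 2.84 ± 1.23 in the controls. Exonic lengths are unions over all GENCODE release 29 transcripts, and that of SOD2, 18.2 kb, includes long forms, so its level per kb is uncertain. The ratio of NFKB2 to NFKB1 per kb was 0.503, 0.333 and 0.376 in the SOX10 libraries, against 0.419, 0.279 and 0.440 in the controls.

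The rest of the pathway was taken from lists of 77 genes by role, of which 76 were in the table and 64 had enough reads. By edgeR, 1 of the 64 was called lower, IL8, and 0 higher, next to 0.103% called lower among all tested genes. At an unadjusted p under 0.05 by edgeR, 16 were lower and 1 higher, where 3.52% of all tested genes were lower. The groups did not overlap for 10 of the 64 with all SOX10 libraries lower, against 6.03% of all tested genes. They did not overlap for 2 of the 64 with all SOX10 libraries higher. For higher genes no share over all tested genes is given here, by either measure. The median log2 fold change of the 64 was -0.17, against 0.0076 over all tested genes. It was negative for 46 of 64, or 71.9%, against 48.7% of all tested genes. Control replicate 3 was the highest of the 6 libraries for 23 of the 64, or 35.9%, against 15.7% of all tested genes. These lists were drawn up with earlier results of these data known, so nothing is read from these shares.

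The remaining subunit and IkB genes were 5 tested genes with a median log2 fold change of -0.57 and 0 calls. BCL3, an IkB protein that acts in the nucleus, had 41.5, 28.3 and 26.4 CPM in the SOX10 libraries, against 48.6, 38.1 and 58.5 CPM in the controls. Its log2 fold change was -0.63 (SE 0.21), with an adjusted p by edgeR of 0.519. NFKBIE, another IkB gene, had -0.93 (SE 0.41) on 6 to 37 reads a library. REL, the remaining subunit, had -0.42 (SE 0.23), and 43.3% of its exonic bases are shared with another annotated gene. Of 9 tested receptors 0 were called, with a median of -0.16. TNFRSF12A, the receptor for the cytokine TWEAK, stood at 81.7 ± 17.3 CPM in the SOX10 libraries and 105 ± 6.21 CPM in the controls (SD, n = 3 each). The death receptor TNFRSF10B stood at 150 ± 5.86 CPM in the SOX10 libraries, against 179 ± 13.9 CPM in the controls. Neither overlapped between groups, but the adjusted p-values by edgeR were 0.689 and 0.763. TLR4, the receptor for bacterial lipopolysaccharide, had the highest log2 fold change of the pathway, 0.48 (SE 0.25, adjusted p by edgeR 0.836).

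The adaptors and kinases lay closest to 0 of the roles, with a median of -0.11 over 25 tested genes and 0 calls. TBK1, a kinase that also acts downstream of nucleic acid sensors, had 56.0, 60.2 and 62.2 CPM in the SOX10 libraries, against 85.1, 76.1 and 83.4 CPM in the controls. The groups were apart, with a log2 fold change of -0.46 (SE 0.15, adjusted p by edgeR 0.444). An antisense transcript shares 14.7% of its annotated exonic bases. TRAF5, an adaptor of TNF family receptors, had -0.54 (SE 0.24). MYD88, the adaptor of Toll-like and interleukin receptors, stood at 1013 ± 63.9 CPM in the SOX10 libraries and 888 ± 55.6 CPM in the controls (SD, n = 3 each), with 0.19 (SE 0.09) and an adjusted p by edgeR of 0.794.

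Of 7 tested genes of ubiquitin editing and feedback 0 were called, and their median was -0.15. OTUD7B, a deubiquitinase related to TNFAIP3, stood at 64.8 ± 2.85 CPM in the SOX10 libraries and 81.2 ± 6.47 CPM in the controls (SD, n = 3 each). Its log2 fold change was -0.34 (SE 0.14, adjusted p by edgeR 0.729). The ubiquitin ligase ITCH had -0.27 (SE 0.12), and N4BP1, which restrains NF-kB signalling, -0.17 (SE 0.12). Of 7 tested survival targets 0 were called, with a median of -0.17. IER3, an early response gene, had -0.39 (SE 0.15, adjusted p by edgeR 0.685), with 26.5% of its exonic bases shared with an antisense transcript. BCL2L1, an inhibitor of apoptosis, had -0.43 (SE 0.34), with 43.0% shared. BIRC2, the neighbour and close relative of BIRC3, stood at 79.4 ± 9.50 CPM in the SOX10 libraries and 89.4 ± 9.47 CPM in the controls (SD, n = 3 each), with -0.17 (SE 0.14).

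The secreted and other targets had the lowest median, -0.78 over 11 tested genes, and the single call. The neutrophil chemokine gene IL8 stood at 88.4, 122 and 60.6 CPM in the SOX10 libraries, against 263, 125 and 277 CPM in the controls. It fell by 1.34 on the log2 scale (SE 0.22, adjusted p by edgeR 0.00408), lower in 3 of 3 SOX10 libraries than in any control, although control replicate 2 and SOX10 replicate 2 nearly met. The call was lost without control replicate 1 (adjusted p by edgeR 0.144) and without control replicate 3 (0.138), and with DESeq2 (0.635). It was also lost with a block for the replicate number (adjusted p by edgeR 0.0995). The removal of both SOX10 replicate 1 and control replicate 3 lost it too. Adjusted p-values ran from 4.01e-20 (edgeR with no low-count filter) to 0.635 (DESeq2), and the call held in 12 of 17 alternatives. The related CXCL1 had 36.2, 39.9 and 18.9 CPM in the SOX10 libraries, against 84.0, 36.9 and 97.5 CPM in the controls, with -1.28 (SE 0.26) and an adjusted p by edgeR of 0.0514. CCL2, a chemokine for monocytes, had -1.07 (SE 0.30) and an adjusted p by edgeR of 0.297. For CXCL1 control replicate 2 lay within the SOX10 range. For CCL2 it had the lowest level of all libraries, 17.3 CPM. The cytokine gene TNF had 5 reads over all libraries, CSF2 1 read and VCAM1 8 reads, and differences in these were not detectable at this depth.

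**Figure D4:**
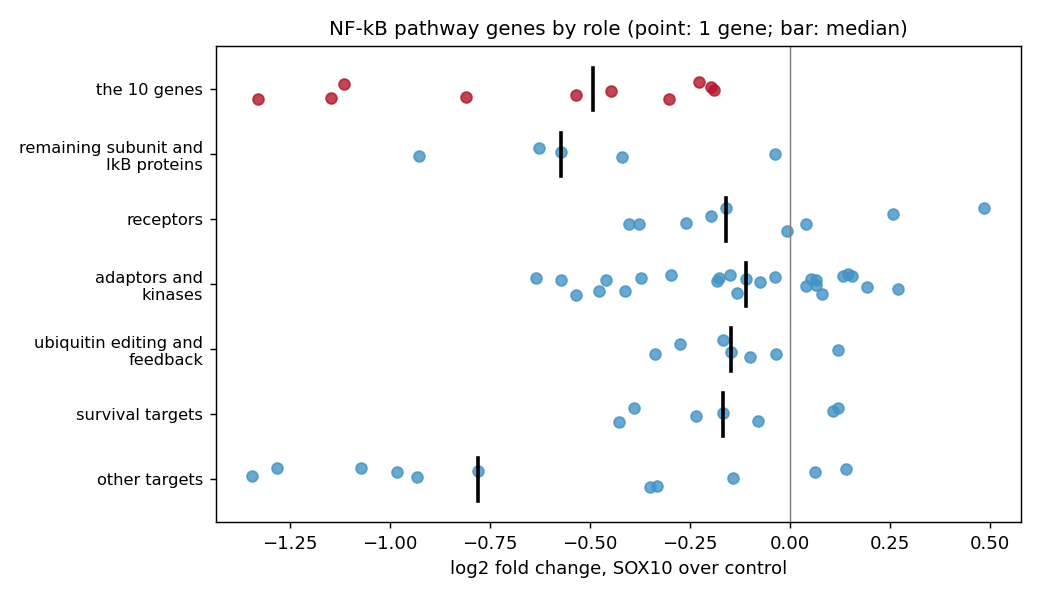
Log2 fold change of SOX10 over control (horizontal axis) for the 10 genes and for the 64 tested genes of the 6 other roles, with 1 point a gene and a bar at each median. The medians run from -0.11 for adaptors and kinases to -0.78 for secreted and other targets, and that of the 10 genes is -0.49.

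The 5 genes whose pattern over the 6 libraries was most like that of TNFAIP3 were not on the lists of this pathway. Those lists are a small part of the genes compared, so nothing is read from this. Ranks of the other pathway genes are not given here. Likeness was the root mean square distance between log2 CPM centred on each gene's mean, over 6625 genes of at least 20 CPM. Such genes share its difference between the groups by construction, so this is a description. The nearest was DLX2, a homeobox transcription factor, at a distance of 0.27. It had 23.0, 35.1 and 39.5 CPM in the SOX10 libraries, against 60.8, 56.5 and 62.9 CPM in the controls. Next came SPHK1, a sphingosine kinase (0.32), PPP1R15A, a phosphatase subunit of the stress response (0.34), LYST, a regulator of lysosome traffic (0.34), and LOC642846 (0.34). Of the other 9 genes SOD2 was nearest, at rank 7 with a distance of 0.34, then ICAM1 at rank 66 with 0.45. NFKBIA, the best known target among the inhibitors, was at rank 1161 with 0.59, and RELB was under the level needed for a rank.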

How the data were processed

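RNA was sequenced in 6 libraries, 3 per group, each made from 125 ng of total RNA. The authors deposited 1 table of raw read counts, with a row for each gene symbol and a column for each library. According to the submitters' processing notes, HTSeq, DESeq and TopHat 1.4.0 were used with hg19, and the sources used here name no annotation or strand setting. The last 5 rows of the table name no gene and were left out; they hold reads outside genes (39.4% to 46.9% of all records), in several places (17.7% to 19.1%) or ambiguous (0.435% to 0.551%).

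Columns were matched to samples by title and grouped by the treatment label. Replicates of each group were more unlike than sampling noise would make them (chi-square per degree of freedom 1.98 to 6.50). Where no read was counted, up to 3 may be missed (0.727 to 3.46 CPM), for counting error only. All 6 libraries were fitted with edgeR 4.0.16 (quasi-likelihood test, R 4.3.3), with TMM, filterByExpr (minimum count 10, minimum total 15), no covariate, and Benjamini-Hochberg adjustment over 10678 genes (threshold 0.05). CPM use TMM factors and the totals of tested genes. Log2 fold changes use edgeR's prior count of 0.125, and standard errors come from the F statistic. Log2 CPM for centring and distances use a prior count of 2. The fit was also run on simulated counts with 1 common dispersion for all genes and independent libraries. That run did not model libraries that shift many genes together, and no result here rests on it.

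The 10 genes, the lists of pathway genes and markers and the rule for named genes were chosen with earlier results of these data known. The rule names, in each pathway list, the 3 tested genes with the smallest p and every called gene, the 3 most abundant interferon genes and the 5 genes nearest to TNFAIP3. CD68, KRT18, MITF, PMEL, IFNB1, TNF, CSF2 and VCAM1 were named after their values were seen. Alternatives were other scalings and filters, DESeq2 1.42.0, limma-voom (limma 3.58.1), a block for the replicate number, and each library left out in turn. Chosen after seeing the data were thinning to equal depth, a covariate for reads outside genes, and the removal of both SOX10 replicate 1 and control replicate 3. GENCODE release 29 and RefSeq are on another build than hg19, so no coordinates of counted reads are given; the printed coordinates are those of RefSeq's GRCh38.p14.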

Additional observations from a re-analysis of the deposited data

How the results depend on the processing

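The median log2 fold change of the 10 genes was negative in all 17 alternatives. Without single libraries it ran from -0.97 to -0.18, and otherwise it stayed between -0.60 and -0.44. The pathway genes' median ran from -0.24 to -0.14 without single libraries. Leaving out 1 library gave 6 to 18 called genes over the whole table and 0 to 3 called pathway genes, against 12 and 1 with all libraries. The count of called genes was 48 with no low-count filter and 43 with the covariate for reads outside genes, and 7 without SOX10 replicate 1 and control replicate 3. Pathway genes called numbered 2 with library totals, 4 with no low-count filter, 2 with the 1 CPM filter, 0 with DESeq2, 3 with the covariate and 0 without SOX10 replicate 1 and control replicate 3. The cause of these shifts was not tested. With the replicate number as a block there were 7 called genes and 0 called pathway genes. Same-numbered libraries deviated from their group means with correlations of -0.030, -0.033 and -0.14 across tested genes, and 0 of 3 SOX10 libraries correlated best with the control of their own number, so the numbers were not taken as pairs. None of the 10 genes changed its sign except NFKB2 and TNIP1 without control replicate 3. Depth limits RELB most among the 10 genes, with as few as 6 reads in a control library, and 13 of 77 pathway genes could not be tested.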
